A study of Mus musculus with 48 samples.

Results

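The proteasome is the cell's main machine for degrading proteins marked with ubiquitin. Its core particle is a barrel of stacked rings, with α subunits at both ends and β subunits, the proteolytic ones among them, in the middle. A regulatory particle of ATPases and non-ATPase subunits caps the barrel, recognises ubiquitin, unfolds substrates and feeds them in, and dedicated chaperones build the complex. In cells exposed to interferon, and in lymphocytes, the catalytic β subunits Psmb5, Psmb6 and Psmb7 are replaced by Psmb8, Psmb9 and Psmb10, which form the immunoproteasome and cut peptides for class I antigen presentation. Heat unfolds proteins, and proteins that chaperones cannot refold are degraded by this machine, so its genes are of interest beside the heat shock genes. The genes described here are the protein-coding genes whose symbols begin with Psma, Psmb, Psmc, Psmd, Psme, Psmf or Psmg followed by a number, which gave 49 of 58913 genes in the files. A gene was tested in a tissue where its mean was at least 1 FPKM (fragments per kilobase of exon, on the authors' scale between libraries). This held for 45 genes in hypothalamus, 47 in pituitary and 47 in mammary gland. Of the rest, Psma8, a testis α subunit, and Psmb11, the thymus β subunit, were under 1 FPKM in all 3 tissues (means of 0.105, 0.0767 and 0.114 FPKM for Psma8 in hypothalamus, pituitary and mammary gland, with Psmb11 listed at 0 in every mammary library), and Psmb8 and Psmb9 were so in hypothalamus.

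The libraries came from lactating ICR mice, an outbred laboratory strain, 10 weeks old and at lactation day 13. Control dams stayed at 25 °C and heat dams at 36 °C, each at 55% relative humidity, and tissue was taken straight after an exposure whose length the labels do not give. Hypothalamus, pituitary and the left number 4 mammary gland each gave 8 control and 8 heat libraries, which the labels call biological replicates. Defining markers of hypothalamus and of milk-producing epithelium were present in the matching libraries, whereas in control pituitary libraries the anterior lobe hormone genes Prl (22.5 ± 10.98 FPKM) and Gh (11.3 ± 6.40 FPKM; SD, n = 8) stood far below Pomc (2173 to 42736 FPKM), the main hormone gene of the intermediate lobe. All 9 listed anterior lobe markers had means of at least 1 FPKM in pituitary, and they summed to 1192 to 1997 FPKM in control and 734 to 1544 in heat libraries. Each hypothalamus library held 16272700 to 22166100 fragments on annotated genes, with 10893100 to 17246500 for pituitary and 11586400 to 17809300 for mammary gland. Replicates 1 to 3 formed a set distinct from replicates 4 to 8 in both treatments, markers of lymphocytes were high in mammary control replicate 5 and heat replicates 4, 5, 6 and 8, and pituitary control replicate 1 and heat replicate 3 were low in intermediate lobe markers. As a check of the treatment labels, Hspa1b, an inducible HSP70 chaperone gene, rose in every tissue, with log2 changes of 2.71, 5.61 and 5.50 in hypothalamus, pituitary and mammary gland (limma adjusted p = 0.00119, 8.04e-06 and 5.02e-05), and all 24 heat libraries were above every control library of their tissue. Whole tissue was sequenced, so fewer cells of a type and less RNA per cell cannot be told apart.

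The first comparison asked whether heat changed proteasome genes within each tissue. No proteasome gene passed the threshold (limma, Benjamini-Hochberg adjusted p under 0.05 over all genes of the tissue) in either direction in any of the 3 tissues. The share of all tested genes that passed was 0.681% in hypothalamus, 3.79% in pituitary and 5.31% in mammary gland. At an unadjusted p under 0.05 there were 0 of 45, 2 of 47 and 6 of 47 proteasome genes, against 8.75%, 16.6% and 21.5% of all genes tested. The median change of the proteasome genes, heat minus control on the log2(FPKM + 1) scale, was 0.00 in hypothalamus, -0.06 in pituitary and -0.04 in mammary gland, beside 0.00, 0.00 and -0.01 over all genes tested. The 95% interval of the change lay within 0.5 log2 units of 0, a 1.41-fold change, for 45 of 45 genes in hypothalamus, 47 of 47 in pituitary and 42 of 47 in mammary gland. The same held for 87.6%, 74.9% and 59.8% of all genes tested. The mammary genes with wider intervals were Psmb8, Psmb9, Psme2, Psmg1 and Psmg4.

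**Figure D1:**
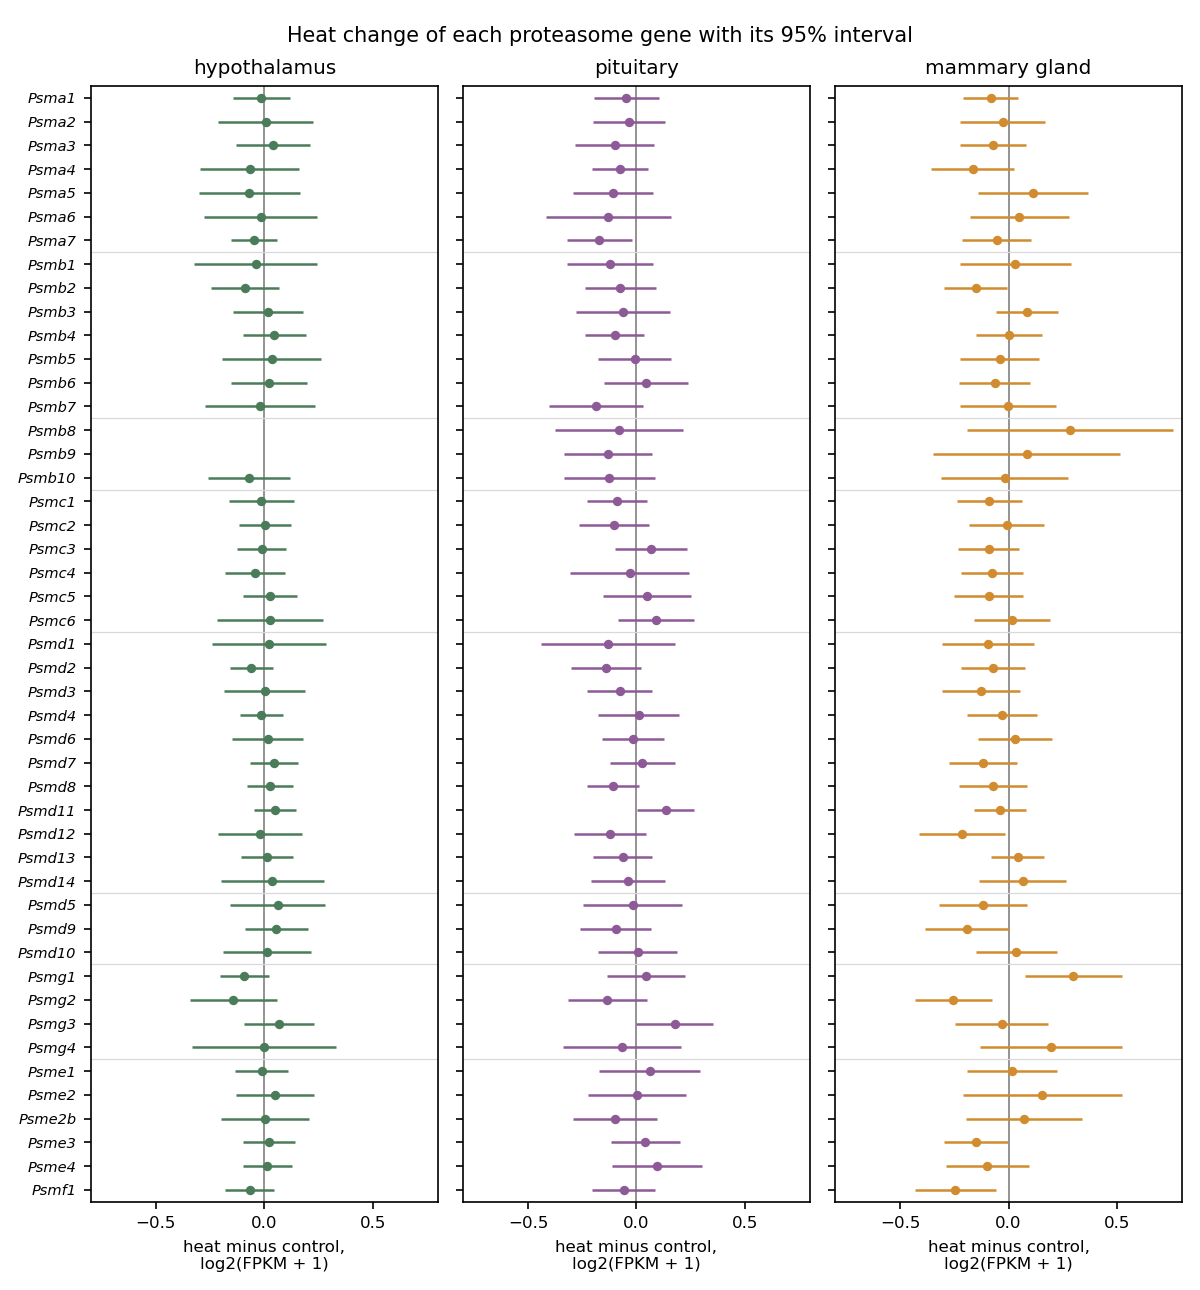
Heat minus control for each proteasome gene on the log2(FPKM + 1) scale (x axis) in 3 tissues, 8 control and 8 heat libraries each; points are limma estimates and lines their 95% intervals, with grey lines between functional groups. In hypothalamus and pituitary every interval lies within 0.5 of 0, and in mammary gland Psmb8 has the widest.

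Hypothalamus showed the smallest differences. Of its 45 tested genes 25 had estimates above 0 and 20 below, ranging from -0.14 to 0.07, beside 51.15% of all genes tested above 0. The smallest adjusted p belonged to Psmg1, which encodes a chaperone of α ring assembly and had 9.70, 10.8 and 11.7 FPKM in control libraries (lowest, median, highest) and 8.64, 9.93 and 10.5 in heat libraries. All 8 heat values were below the control median, but the groups overlapped, and the change was -0.09 ± 0.05 (SE; limma adjusted p = 0.765). Psmc5, an ATPase of the regulatory particle and the most abundant proteasome gene there, had 104, 107 and 109 FPKM in control and 93.7, 105 and 128 in heat, the heat libraries spreading to both sides of the controls (change 0.03, adjusted p = 0.999). Psmg3, another assembly chaperone and the least abundant tested member, had means of 1.46 and 1.56 FPKM. Elsewhere the genes of smallest adjusted p in their groups were the β subunits Psmb2 (-0.09) and Psmb10 (-0.07), the regulatory particle scaffold Psmd2 (-0.06) and Psmf1 (-0.07). Psmf1 encodes a proteasome inhibitor, and these 4 had limma adjusted p between 0.955 and 0.999. All 7 tested α subunit genes tied at adjusted p = 0.999, with changes from -0.07 to 0.04 (Psma6 -0.02). The 6 ATPase genes and the 3 regulatory particle chaperone genes also tied at 0.999. Their changes ran from -0.04 to 0.03 and from 0.01 (Psmd10) to 0.06.

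In pituitary 33 of 47 estimates were below 0, and these included all 7 tested α subunits, 6 of 7 constitutive β subunits and all 3 immunoproteasome subunits. Of all genes tested there 51.3% had estimates above 0. Subunit genes varied together from library to library, as given below, so these signs are not independent of each other. The smallest adjusted p belonged to the α subunit gene Psma7, with 22.1, 23.8 and 25.7 FPKM in control and 17.6, 20.7 and 25.5 in heat. Of the heat libraries 7 lay below the control median, with overlap, and the change was -0.17 ± 0.07 (limma adjusted p = 0.218). Among the alternatives tried, quantile normalization alone brought it past the threshold (-0.22, adjusted p = 0.0307). Psmd11, a lid subunit that links lid and base of the regulatory particle, had 4.82, 5.49 and 6.74 FPKM in control and 5.60, 6.16 and 6.53 in heat. All 8 heat libraries stood above the control median and inside the control range (change 0.13 ± 0.06, adjusted p = 0.285). The most abundant gene, the β subunit Psmb1, had means of 81.4 ± 8.91 and 73.9 ± 9.35 FPKM (SD, n = 8), and the least abundant, Psmg3, had 1.27 and 1.56 FPKM (change 0.18, adjusted p = 0.306). Other genes of smallest adjusted p in their groups were Psmb7 (-0.19), Psmb9 (-0.13), the ATPase gene Psmc2 (-0.10), the regulatory particle chaperone gene Psmd9 (-0.10) and Psme2b (-0.10), with limma adjusted p from 0.384 to 0.642. Within libraries numbered 1 to 3 the median change of the proteasome genes was -0.17, and within libraries numbered 4 to 8 it was 0.00, and neither set held a gene past the threshold. With the intermediate lobe marker score as a term the median was -0.05, and without control replicate 1 and heat replicate 3 it was -0.04.

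In mammary gland 30 of 47 estimates were below 0, while 48.1% of all genes tested there had estimates above 0. The genes nearest to the threshold were Psmg1, Psmg2 and Psmf1. Psmg1 and Psmg2 encode the partners of a dimer that scaffolds the α ring, and their estimates had opposite signs. Psmg2 had 9.70, 12.1 and 14.4 FPKM in control and 8.72, 9.52 and 11.9 in heat. All 8 heat libraries lay below the control median, with overlap (change -0.25 ± 0.08, limma adjusted p = 0.089). Psmg1, named here after its values were seen, had 6.96, 8.02 and 11.1 FPKM in control and 7.82, 10.9 and 12.2 in heat. In 7 of 8 heat libraries it was above the control median, with overlap (0.30 ± 0.11, adjusted p = 0.114). Psmf1 had 2.69, 3.27 and 3.87 FPKM in control and 2.17, 2.39 and 3.83 in heat, with replicate 2 alone among the heat libraries above the control median (-0.25 ± 0.09, adjusted p = 0.116).

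These 3 mammary genes passed the threshold when all 48 libraries entered 1 fit, with Psmg1 higher (adjusted p = 0.0106) and Psmg2 and Psmf1 lower (0.0271 and 0.00685). That fit assumes that all tissues vary alike. Psmf1 also passed without heat replicate 2 (-0.31, adjusted p = 0.0279) and Psmg1 without heat replicate 7 (0.36, adjusted p = 0.0392). With the lymphocyte marker score as a term none of the 3 passed, with changes of 0.26 for Psmg1, -0.27 for Psmg2 and -0.19 for Psmf1. Without the 5 libraries rich in lymphocyte markers they were 0.17, -0.18 and -0.22 over 7 control and 4 heat libraries, again with no gene past the threshold.

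**Figure D2:**
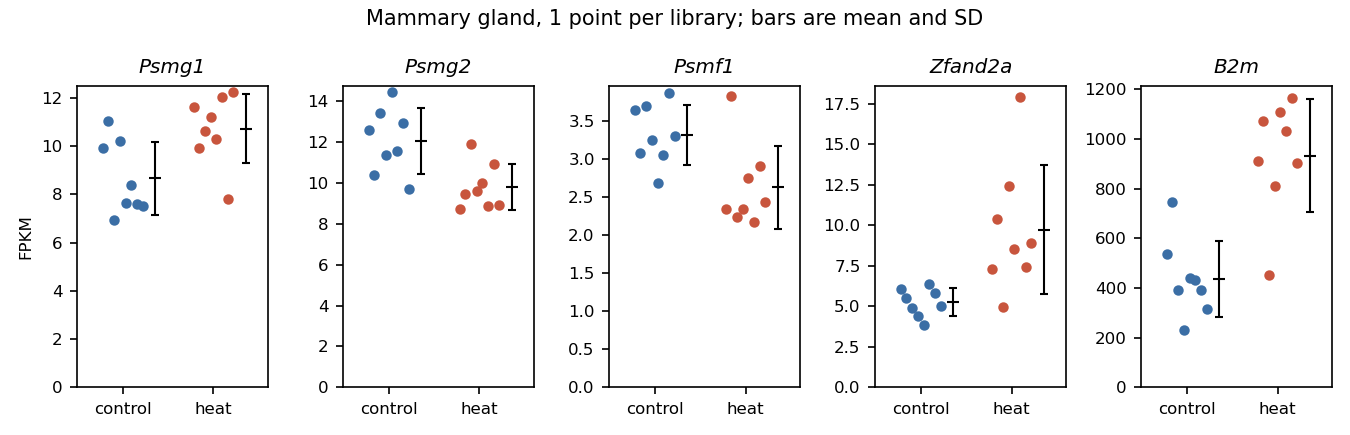
FPKM (y axis) of 3 proteasome genes and of Zfand2a and B2m, which are not proteasome subunits, in each of 8 control and 8 heat mammary libraries (points), with mean and SD (bars). Psmg1, Psmg2 and Psmf1 overlap between treatments, and the heat means of Zfand2a and B2m are 1.85 and 2.14 times the control means.

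No structural subunit came as near to the threshold in mammary gland. Among the constitutive β subunits Psmb2 came nearest to the threshold, with 39.1, 43.1 and 46.4 FPKM in control and 33.1, 38.6 and 45.3 in heat (-0.15 ± 0.07, limma adjusted p = 0.213). The α subunit Psma4 had a change of -0.17 (adjusted p = 0.302), the ATPase gene Psmc3 -0.09 (0.455), the lid subunit Psmd12 -0.21 (0.195) and the chaperone gene Psmd9, with 25.5% of its exon bases shared with an antisense gene, -0.19 (0.235). Psmb1, the most abundant member, had means of 100 and 100.5 FPKM, and Psmg3, the least abundant, 1.92 and 1.85 FPKM.

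The second set of values concerns the exchange between constitutive and immune catalytic subunits. The promoters of 1 gene of each kind are shown because Psmb5 and its replacement Psmb8 are the pair whose levels are set side by side in what follows. They are the 250 bases before the start site, from RefSeq on GRCm38.p6, at chr14:54617996-54618245 on the minus strand for Psmb5 and chr17:34197945-34198194 on the plus strand for Psmb8, and the capitals mark a match to TGACNNNGC, the core of the antioxidant response element that NRF1, the transcription factor of proteasome genes, can bind.
Psmb5: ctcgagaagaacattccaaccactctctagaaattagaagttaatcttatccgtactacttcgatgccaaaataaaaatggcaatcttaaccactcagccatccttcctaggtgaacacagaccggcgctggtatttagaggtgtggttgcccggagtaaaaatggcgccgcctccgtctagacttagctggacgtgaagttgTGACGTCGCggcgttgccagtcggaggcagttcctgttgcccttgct
Psmb8: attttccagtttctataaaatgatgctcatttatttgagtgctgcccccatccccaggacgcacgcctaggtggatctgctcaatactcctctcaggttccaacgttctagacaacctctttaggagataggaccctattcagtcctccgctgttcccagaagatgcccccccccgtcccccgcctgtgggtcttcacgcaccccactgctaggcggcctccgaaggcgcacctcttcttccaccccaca
The match in Psmb5 begins 47 bases before the start site, and Psmb8 holds none.

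In 300-base windows from 250 bases before to 50 after the start, searched on both strands, 41 of the 49 genes had a promoter in the table. TGACNNNGC was present in 6 of them (14.6%), Psmb5, Psmb6, Psmc6, Psmd9, Psmd12 and Psme4, beside 13.99% of all 27025 genes with a promoter there. A gene with several windows counted once if any of them held the motif. The CCAAT box CCAAT was in 14 (34.1%) beside 41.1%. The heat shock element, 3 alternating GAA and TTC units with 2 free bases between units, in either phase, was in 0 of 41 beside 0.662% of all genes, and the window of the heat-induced Hspa1b held none either. The interferon element core, GAAA repeated after 2 free bases, added to the search after the data were seen, was in 5 (12.2%), Psmb3, Psmd4, Psmd9, Psme1 and Psmg4, beside 3.99%, and in none of Psmb8, Psmb9 and Psmb10. These are letter matches in a short window and were not set against any measured binding.

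Catalytic subunits differed between treatments by less than the spread of the libraries. In mammary gland Psmb8, whose exons overlap an antisense gene over 14.7% of their bases, had 5.28, 10.2 and 17.4 FPKM in control and 8.21, 11.6 and 21.0 in heat. The highest control value stood above 7 of 8 heat values, and the change was 0.28 ± 0.22 (limma adjusted p = 0.502). Psmb9, which overlaps the antigen transporter gene Tap1 on the other strand over 5.79% of its bases, had 2.77, 4.07 and 7.07 FPKM in control and 2.78, 4.56 and 8.599 in heat (0.08 ± 0.20, adjusted p = 0.866). Psmb10 had 7.74, 8.92 and 12.5 FPKM in control and 6.16, 9.86 and 12.9 in heat (-0.02 ± 0.14, adjusted p = 0.964). The constitutive partners had changes of -0.04 for Psmb5, -0.06 for Psmb6 and -0.00 for Psmb7, with adjusted p of 0.843, 0.693 and 0.997. Per 100 FPKM of the 3 constitutive genes, the 3 immune genes together gave 21.0 ± 5.18 in control and 25.1 ± 10.6 in heat (SD, n = 8).

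The spread of Psmb8 and Psmb9 among mammary libraries ran beside that of lymphocyte markers. The 14 T cell and B cell markers summed to 3.54 to 102 FPKM in control libraries and to 3.75 to 142 in heat libraries, and 1 control and 4 heat libraries made up the upper end. In those 5 libraries Psmb8 ranged from 14.3 to 21.0 FPKM and in the other 11 from 5.28 to 12.1, so the ranges did not meet. The corresponding ranges were 5.52 to 8.599 and 2.77 to 5.26 FPKM for Psmb9. They overlapped for Psmb10 (9.20 to 12.9 and 6.16 to 12.5 FPKM) and for Psmb5 (36.0 to 47.1 and 39.0 to 53.7 FPKM). All 5 libraries rich in these markers carry numbers from 4 to 8. The other mammary libraries numbered 4 to 8 had 8.68 to 12.1 FPKM of Psmb8. With treatment in the limma model, Psmb8 was higher in numbers 4 to 8 than in 1 to 3 (0.62 ± 0.18, adjusted p = 0.0465). The same held in pituitary (0.38 ± 0.11, adjusted p = 0.00872). The part of the library number in these values was not tested. With the lymphocyte score as a term the heat change of Psmb8 was -0.07, that of Psmb9 -0.24 and that of Psmb10 -0.18, and without the 5 libraries they were -0.06, -0.26 and -0.19, none past the threshold. The summed macrophage markers were 144 to 256 FPKM in control and 142 to 265 in heat, and the part of either cell type in these values was not tested.

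**Figure D3:**
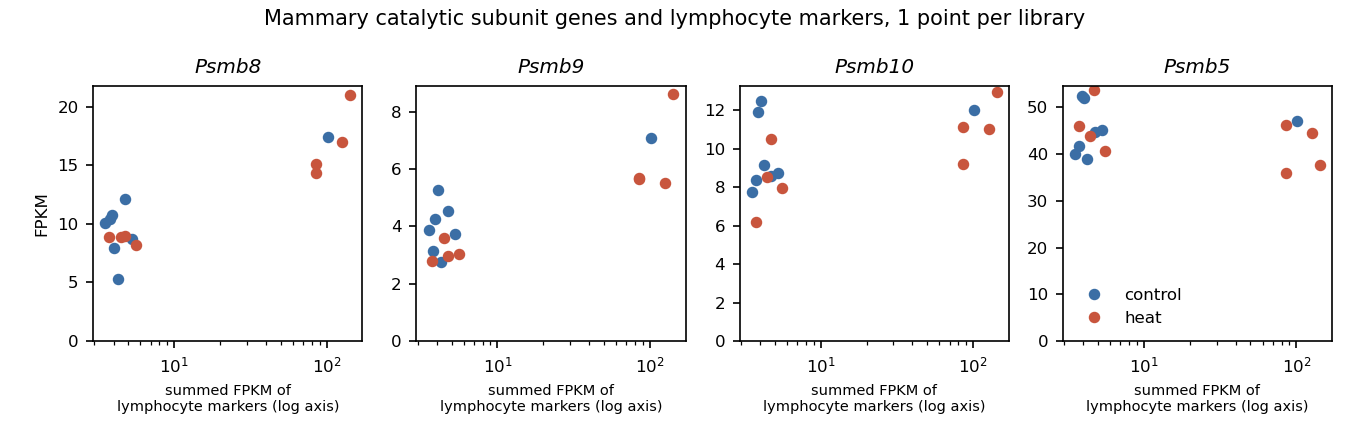
FPKM of 3 immunoproteasome genes and of the constitutive Psmb5 (y axis) against the summed FPKM of lymphocyte markers (x axis, log scale) in 16 mammary libraries, 1 point each, coloured by treatment. The 5 libraries at the right, 1 control and 4 heat, hold the 5 highest Psmb8 and Psmb9 values.

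In pituitary Psmb8 had 3.29, 4.45 and 5.81 FPKM in control and 2.34, 4.21 and 6.64 in heat (-0.08, limma adjusted p = 0.828), and Psmb9 had 2.32, 2.78 and 3.65 and 1.599, 2.50 and 3.29 (-0.13, adjusted p = 0.536). Both groups overlapped widely for each gene. Psmb10 had means of 10.2 and 9.19 FPKM (adjusted p = 0.576), and the constitutive Psmb5, Psmb6 and Psmb7 had changes of -0.01, 0.04 and -0.19, with adjusted p of 0.973, 0.857 and 0.384. Psmb7 overlaps an antisense gene over 11.8% of its exon bases. In hypothalamus Psmb8 had 0.656 to 1.05 FPKM in control and 0.688 to 1.08 in heat, and Psmb9 had 0.407 to 0.536 and 0.235 to 0.623, with means below the level tested. Psmb10 was the only immune subunit tested there, with 16.9, 19.4 and 20.7 FPKM in control and 14.7, 17.3 and 26.5 in heat (-0.07, adjusted p = 0.999). Psmb5, Psmb6 and Psmb7 had changes of 0.03, 0.02 and -0.02, each with adjusted p of 0.999.

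Activators open the barrel without the regulatory particle. Psme1 and Psme2 form the interferon-inducible cytoplasmic activator, Psme3 a nuclear one, and Psme4 a large nuclear activator known from spermatogenesis and DNA repair. None passed the threshold after heat. Mammary Psme3 came nearest, with 25.3, 29.5 and 34.1 FPKM in control and 22.4, 26.5 and 29.5 in heat, all 8 heat libraries lying below the control median (-0.15 ± 0.07, limma adjusted p = 0.226). Mammary Psme1 had means of 16.1 in both groups, Psme2 18.2 and 19.6, and Psme4 20.6 and 18.8 FPKM, with adjusted p of 0.954, 0.665 and 0.583. In pituitary the changes were 0.06, 0.00, 0.04 and 0.10 for Psme1, Psme2, Psme3 and Psme4 (adjusted p from 0.685 to 0.998). In hypothalamus they were -0.01, 0.05, 0.02 and 0.01 (adjusted p 0.999 for each). Psme2 and its copy Psme2b share 99.4% of 794 aligned transcript bases, so how reads were split between the copies is uncertain. Their summed values were 67.9 ± 10.3 FPKM in control and 70.9 ± 8.34 in heat mammary gland. In pituitary they were 40.7 ± 3.60 and 38.7 ± 5.53, and the hypothalamus gave 18.2 ± 1.93 and 18.3 ± 1.93 (SD, n = 8).

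A further test asked whether the heat change differed between tissues, over 9681 genes and 45 proteasome genes. Like the fit of all 48 libraries above, it assumed that all tissues vary alike. No proteasome gene passed in the limma F test of heat by tissue, where 1.76% of all genes did. None passed in the 3 pairwise differences either, against 0.0207% of genes for pituitary minus hypothalamus, 1.33% for mammary gland minus hypothalamus and 1.6% for mammary gland minus pituitary. Psmg1 came nearest. Its heat change in mammary gland exceeded that in hypothalamus by 0.39 ± 0.11 (adjusted p = 0.0649), and the F test gave adjusted p = 0.118. Once the library set was fitted within each tissue, the difference between mammary gland and hypothalamus passed (adjusted p = 0.0349) and the F test did not (0.0585). All 3 tissues were taken from every dam, but the labels do not say that equal numbers mark 1 dam. With treatment and number as a replicate block shared by the tissues, Psmg1 passed in the F test (adjusted p = 0.0238) and for mammary gland minus hypothalamus (0.0122), and no other proteasome gene did. Without the 7 libraries that stood apart in lymphocyte or lobe markers no proteasome gene passed.

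Levels also differed between tissues. In control libraries, the gene of highest mean FPKM was Psmc5 in hypothalamus (107) and Psmb1 in pituitary (81.4) and mammary gland (100), and the lowest tested was Psmg3 in all 3 (1.46, 1.27 and 1.92). The median over the tested genes was 19.6 FPKM in hypothalamus, 16.4 in pituitary and 21.1 in mammary gland. Of the 45 genes tested in every tissue 28 had their highest control mean FPKM in mammary gland, 12 in hypothalamus and 5 in pituitary. This tally holds for the deposited scale, and the tests between tissues given next show that such counts shift with quantile normalization. The 5 were Psmb4, Psmd9 and the chaperone genes Psmg1, Psmg2 and Psmg4. Within a group, subunits that sit together in the finished complex differed widely per length: constitutive β subunits ran from 22.1 FPKM (Psmb7) to 100 (Psmb1) in mammary gland.

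**Figure D4:**
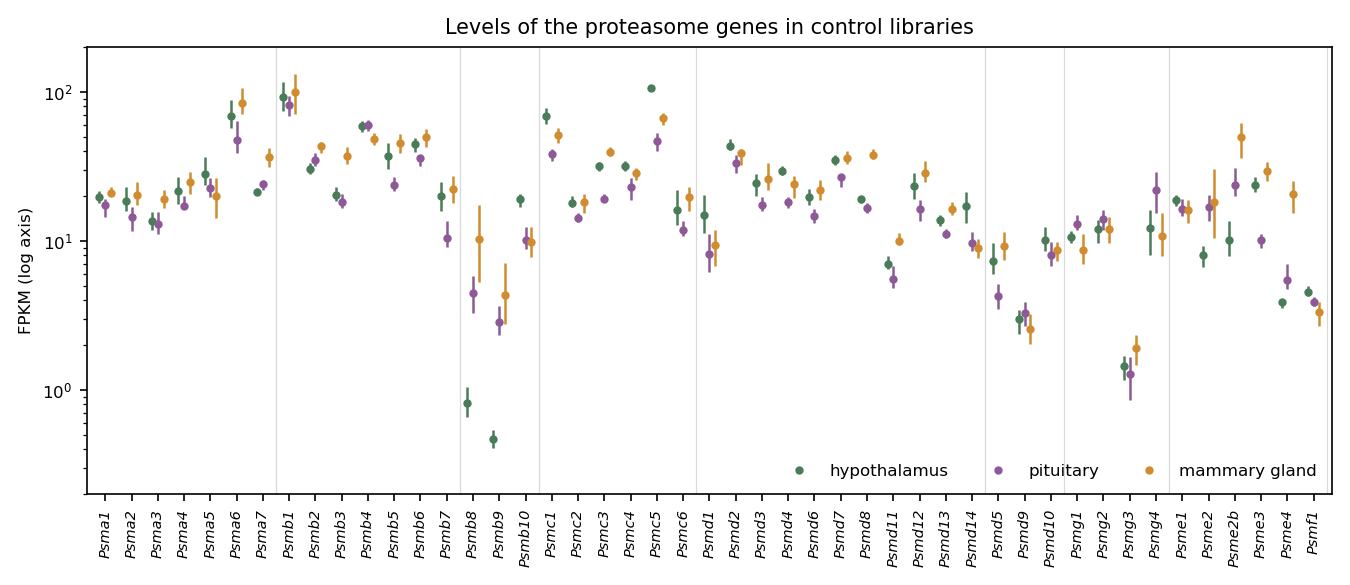
FPKM of each proteasome gene (y axis, log scale) in control libraries of 3 tissues, 8 libraries each; points are means and lines run from the lowest to the highest library. On the deposited scale Psmb8 and Psmb9 are lowest in hypothalamus, and Psme4 and Psme2b are highest in mammary gland.

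The tests between tissues took the control libraries as independent, although all 3 tissues were taken from every dam. They also assumed that all tissues vary alike. Pituitary was lower than hypothalamus in 32 proteasome genes and higher in 8 of 45 (limma, adjusted p under 0.05), where 71.9% of all genes passed, 38.9% lower and 32.9% higher. All 6 ATPase genes and all 11 non-ATPase genes of the regulatory particle were among those lower, and with quantile normalization 3 of the 6 and 6 of the 11 were, with the estimate for Psmd8 turning to 0.10 (adjusted p = 0.0688). The largest differences downward were those of Psmc5 (46.5 ± 3.80 against 107 ± 1.70 FPKM; SD, n = 8; difference -1.20 ± 0.05, adjusted p = 2.95e-16), Psme3 (-1.16, adjusted p = 1.23e-14) and Psmb7 (-0.87, adjusted p = 5.1e-07). The largest differences upward were those of Psme2b (1.14), Psme2 (0.96) and Psmg4 (0.79). Reads of the copies Psme2b and Psme2 are hard to tell apart, and their summed control values were 40.7 ± 3.60 FPKM in pituitary and 18.2 ± 1.93 in hypothalamus. The split depended on scaling. With quantile normalization 14 genes were lower and 13 higher, and the median of all genes moved from -0.04 to 0.14, while the median of the proteasome genes moved from -0.31 to -0.04. The 6 genes named here passed in the same direction under both.

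Mammary gland was higher than hypothalamus in 21 of the 45 genes and lower in 14, where 80.3% of all genes passed, 41.7% higher and 38.6% lower. The 3 largest differences upward were all in activator genes. Among them Psme2b and Psme2 are near-identical copies between which the division of reads is uncertain. Their summed control values were 67.9 ± 10.3 FPKM in mammary gland and 18.2 ± 1.93 in hypothalamus (SD, n = 8). Psme2b had 49.8 ± 10.1 against 10.2 ± 1.74 FPKM (difference 2.17 ± 0.12, limma adjusted p = 4.83e-15), Psme4 had 20.6 ± 3.43 against 3.896 ± 0.201 (2.13 ± 0.09, adjusted p = 4.1e-17), and Psme2 had 18.2 ± 6.08 against 8.02 ± 0.782 (1.04, adjusted p = 1.72e-07; SD, n = 8). For Psme4 the lowest mammary library (15.4 FPKM) was above the highest hypothalamus library (4.11 FPKM). Lower in mammary gland were Psmb10 (9.87 against 19.1 FPKM, -0.90), Psmd14, the deubiquitinase of the lid (8.97 against 17.1 FPKM, -0.84), and Psmc5 (67.2 against 107 FPKM, -0.66). Quantile normalization gave 14 higher and 13 lower, with the median of all genes at 0.17 in place of 0.03, and kept these 6 on the same side.

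Against pituitary, mammary gland was higher in 32 of 45 genes and lower in 6, where 77.3% of all genes passed, 41.5% higher and 35.8% lower. Psme4 (20.6 against 5.49 FPKM, 1.74 ± 0.09), Psme3 (29.5 against 10.2 FPKM, 1.46 ± 0.06) and the lid subunit Psmd8 (37.9 against 16.7 FPKM, 1.15 ± 0.05) differed most, with limma adjusted p of 4.15e-15, 5.06e-17 and 2.22e-17. Lower in mammary gland were the chaperone genes Psmg4 (10.7 against 22.0 FPKM, -0.96) and Psmg1 (8.66 against 13.0 FPKM, -0.53) and the β subunit Psmb4 (48.6 against 60.2 FPKM, -0.29). With quantile normalization 16 were higher and 15 lower, with these 6 on the same side. Psmb8 and Psmb9 were outside these tests, which needed 1 FPKM in every tissue. Their control means were 0.816 ± 0.143 and 0.471 ± 0.0477 FPKM in hypothalamus. Pituitary had 4.48 ± 0.887 and 2.86 ± 0.508 FPKM, and mammary gland 10.3 ± 3.52 and 4.33 ± 1.36 (SD, n = 8). The hypothalamus libraries lay below every library of the other tissues.

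Beside temperature and tissue, the library number went with the level of these genes. In hypothalamus their summed FPKM was 1197 to 1362 in the 6 libraries numbered 1 to 3 and 1001 to 1133 in the 10 numbered 4 to 8, without overlap and in both treatments. With treatment in the limma model, 33 of 45 genes were lower and 3 higher in numbers 4 to 8, where 62.5% of all genes differed, and their median difference was -0.17 beside -0.03 over all genes. The extremes among those that passed were Psmb1 (-0.51 ± 0.06) and Psmd3 (0.26 ± 0.06). In pituitary 12 were lower and 11 higher of 47 (54.4% of all genes differed), and in mammary gland 7 were lower and 1, Psmb8, higher of 47 (7.57%). Summed by treatment, the hypothalamus values were 1162 ± 101 FPKM in control and 1143 ± 122 in heat, those of pituitary 912 ± 39.4 and 869 ± 58.96, and those of mammary gland 1271 ± 82.1 and 1231 ± 97.1 (SD, n = 8).

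**Figure D5:**
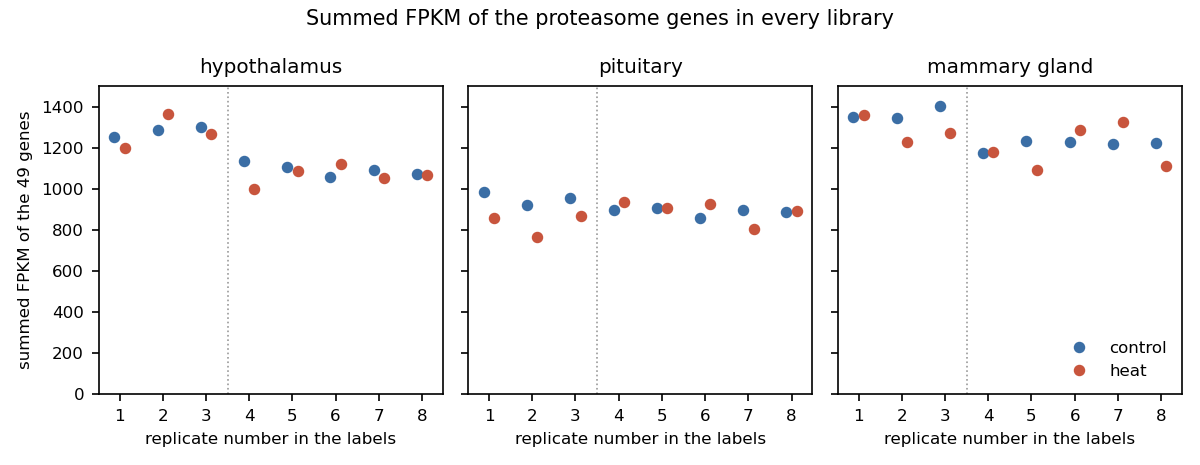
Summed FPKM of the 49 proteasome genes (y axis, from 0) in each library by its replicate number (x axis), control and heat, in 3 tissues; the dotted line divides numbers 1 to 3 from 4 to 8. Hypothalamus libraries numbered 1 to 3 lie above all others of that tissue, and treatments overlap in every tissue.

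The structural subunits varied together from library to library. Over 16 hypothalamus libraries, the deviations from the treatment means of the 31 tested α, constitutive β, ATPase and non-ATPase subunit genes had a median pairwise correlation of 0.68, which was 0.33 once the library set was also taken out. The medians were 0.31 in pituitary and 0.42 in mammary gland, beside 0.01 or less over pairs of all genes in each tissue. In mammary gland Psmb8, Psmb9 and Psmb10 correlated with each other at a median of 0.73 and with the structural subunits at -0.39, and in pituitary at 0.76 and -0.18. With the library set also taken out, these were 0.88 and -0.41 in mammary gland and 0.85 and -0.36 in pituitary, and the structural subunits were at 0.38 and 0.40. The 5 mammary libraries rich in lymphocyte markers, which hold the highest Psmb8 and Psmb9 values, stayed in. Their part in these correlations was not tested. In hypothalamus Psmb10, the only immune subunit tested, correlated with the structural subunits at a median of 0.64. With the library set taken out, this median was 0.37. The mammary and pituitary values pool Psmb10 with Psmb8 and Psmb9, so the signs are not compared for the same gene. Heat hypothalamus replicate 2, which stood apart in Psmb10 (26.5 FPKM), stayed in, and its part was not tested. All these pairs share their libraries and are given as description.

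Among genes that work with the proteasome without being subunits, Zfand2a was the one that rose. It encodes an arsenite- and heat-inducible protein that binds the proteasome. In mammary gland it had 3.85, 5.28 and 6.37 FPKM in control and 4.96, 8.73 and 17.9 in heat. In 7 of 8 heat libraries it was above every control, with the lowest inside the control range, and the change was 0.73 ± 0.18 (limma adjusted p = 0.0279). It was the 1 called of 16 tested partner genes, a list that includes ubiquitin shuttles and deubiquitinases of the complex, where 5.31% of all mammary genes passed, so the count says nothing particular about the list. The call was lost without control replicate 8 (0.72, adjusted p = 0.0502), without heat replicate 4 (0.67, 0.0614), with the lymphocyte score as a term (0.61, 0.116), without the 5 libraries rich in lymphocyte markers (0.37, 0.433), with no filter on low values (0.73, 0.0657) and within replicates 1 to 3 (0.35, 0.605). In pituitary its change was 0.29 ± 0.09 (adjusted p = 0.0753, and 0.01999 once the library set was fitted too) and in hypothalamus 0.17 ± 0.05 (adjusted p = 0.122, and 0.0319 with the set), with 7 and 8 of 8 heat libraries above the control median. No gene of the NRF1 pathway passed among 9 tested in any tissue, where 0.681%, 3.79% and 5.31% of all genes passed in hypothalamus, pituitary and mammary gland, shares at which a list of this size need hold no call. Those of smallest adjusted p were Maff in hypothalamus (0.23, adjusted p = 0.705), Syvn1 in pituitary (0.33, 0.281) and Mafk in mammary gland (0.37, 0.193).

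Of the class I antigen presentation and interferon genes, B2m, the light chain of class I molecules that display proteasome-made peptides, was the 1 of 9 tested that passed in mammary gland, beside 5.31% of all genes there. It had 229.8, 411.4 and 744.3 FPKM in control and 450.7, 971.0 and 1166 in heat. All 8 heat libraries were above the control median, with some overlap, and it rose by 1.14 ± 0.22 (limma adjusted p = 0.00849), by 1.06 with the lymphocyte score as a term (adjusted p = 0.0368) and its estimate without the 5 libraries rich in lymphocyte markers was 1.04 (0.262, over 7 control and 4 heat libraries). Within replicates 1 to 3 it was 0.50 (adjusted p = 0.644) and within replicates 4 to 8 it was 1.51 (0.00448). The immunoproteasome genes of the same pathway, given above, did not pass. In hypothalamus and pituitary none of the 8 and 9 tested genes passed, and H2-K1, a class I heavy chain, had the smallest adjusted p (0.29 with 0.839, and 0.38 with 0.381). The promoters of Zfand2a (chr5:139484492-139484741, minus strand) and B2m (chr2:122147437-122147686, plus strand), 250 bases before the start in RefSeq on GRCm38.p6, are shown because these genes passed where the subunits did not. Capitals mark CCAAT boxes, here on the opposite strand as ATTGG, and in B2m the interferon element core.
Zfand2a: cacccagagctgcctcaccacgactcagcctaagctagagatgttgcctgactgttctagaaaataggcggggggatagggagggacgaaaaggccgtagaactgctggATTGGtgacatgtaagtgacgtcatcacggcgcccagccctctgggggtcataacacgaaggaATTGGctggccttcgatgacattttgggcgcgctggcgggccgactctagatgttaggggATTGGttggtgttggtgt
B2m: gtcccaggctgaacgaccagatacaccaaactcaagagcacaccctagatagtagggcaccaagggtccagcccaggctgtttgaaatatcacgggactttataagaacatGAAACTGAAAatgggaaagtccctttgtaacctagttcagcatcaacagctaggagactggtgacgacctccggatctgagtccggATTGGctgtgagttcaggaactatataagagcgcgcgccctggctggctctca
Zfand2a held 3 CCAAT boxes, 141, 78 and 18 bases before the start site, and B2m held 1, with the interferon match beginning 139 bases before it.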

How the data were processed

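RNA was sequenced from 48 libraries, 8 in each of 6 groups. The authors deposited FPKM values per gene. Per the submitters' processing notes, HISAT2 2.0.5, featureCounts 1.5.0-p3 and DESeq2 1.16.1 and the build mm9 were named, and strandedness is not given in the sources used here. FPKM is not a count, so values were scaled by median ratios and tested as log2(FPKM + 1) with limma 3.58.1 (R 4.3.3, trended variance, Benjamini-Hochberg threshold 0.05, mean FPKM of at least 1), on all genes of a tissue. A change on this scale understates that of low genes. Differences between tissues were tested over the genes that reach 1 FPKM in all 3.

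Dividing by what 1 fragment is worth gave fragments per library, with 94.7 to 97.0% of values under 50 fragments whole within 0.02. In a gene of 1 kb, 3 fragments are 0.105 to 0.600 FPKM. Such limits cover counting error only. The worth of a fragment did not follow the fragment total alone, so the deposited values carry a further scaling between libraries. Control mammary libraries averaged 14399038 fragments, with 3 fragments in 1 kb worth 0.476 FPKM. Control pituitary libraries averaged 14758125 fragments, with 3 worth 0.122 FPKM. No libraries were identical. The fit was tested on simulated data. The alternatives were other pseudocounts, filters, scalings, model terms and subsets of libraries.

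The proteasome genes and all gene lists were chosen with earlier results of these data known. Named were, per tissue, genes past the threshold, the catalytic pairs, the activators, the highest and lowest gene, the gene of smallest adjusted p in each functional group, and for tissue contrasts the 3 largest differences each way. Genes named outside this rule, such as mammary Psmg1, were chosen after their values were seen. Terms and subsets that use lymphocyte markers together with the library set, or that leave out libraries standing apart, and the interferon motif were added after the data were seen. Promoters came from RefSeq (GRCm38.p6).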

Additional observations from a re-analysis of the deposited data

Results flagged for a closer look

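In 104 groups of 8 libraries, 2 held a library far from the others (a gap to the nearest library, relative to the whole range, above Dixon's 95% critical value), and chance flags about 1 in 20 groups. Psmb10 was 26.5 FPKM in heat hypothalamus replicate 2, with the next library at 19.2 FPKM. Psmf1 was 3.83 FPKM in heat mammary gland replicate 2, with the next library at 2.91 FPKM.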

How the results depend on the processing

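The count of proteasome genes past the threshold after heat was 0 in each direction in every tissue, and the alternatives changed it as follows. Quantile normalization gave 1 lower in pituitary. With all 48 libraries in 1 fit, mammary gland had 1 higher and 2 lower. Leaving out each library in turn gave 0 to 1 higher and 0 to 1 lower in mammary gland, and 0 to 0 in hypothalamus and pituitary, over 16 fits each. For the heat by tissue difference, the library set as a term gave 1 gene for mammary gland minus hypothalamus. With the replicate block there was 1 gene in the F test and 1 for mammary gland minus hypothalamus, Psmg1 in each (adjusted p = 0.0238 and 0.0122, limma). That block joins the tissues of 1 treatment and number. Within a tissue, same-numbered control and heat libraries deviated together with a correlation over 0.1 in 7, 7 and 3 of 8 pairs in hypothalamus, pituitary and mammary gland, and 3, 2 and 3 of 16 libraries correlated best with their own number, so the numbers were not taken to pair control with heat libraries, and the block there changed no count. Quantile normalization of control libraries gave 16 higher and 15 lower for mammary gland minus pituitary, and 13 higher and 14 lower for pituitary minus hypothalamus. The cause of these shifts was not tested. No named gene that passed the threshold reversed. Levels under 1 FPKM, as for Psmb8 and Psmb9 in hypothalamus, were not tested.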
